A study of Mus musculus with 4 samples.

Results

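The interleukin-1 family and its receptors were followed through mouse testis kept in organ culture and through testis taken directly from the animal. The 9 genes were chosen by symbol: the ligands Il1a, Il1b, Il33 and Il18, the antagonist Il1rn, the signalling receptor Il1r1, the shared accessory receptor Il1rap, the decoy receptor Il1r2 and the interleukin-33 receptor Il1rl1. They are 9 of the 31017 gene symbols in the count tables, each symbol was found, and each gene had at least 1 UMI (unique molecular identifier, 1 counted RNA molecule). The data were single-cell RNA sequencing counts (10x Genomics 3′ v2) from 4 libraries, 1 per group. All mice were of the C57BL/6 strain and carried an Acr-Gfp transgene, a green reporter under the acrosin promoter, which is active in germ cells from meiosis onward. For the 2-day and 7-day cultures, testes were removed at 7 days postpartum (dpp), cut into fragments, laid on agarose beneath a PDMS-ceiling chip and fed with α-MEM plus AlbuMAX. The remaining libraries are in vivo testes of 9 dpp and 14 dpp mice, so the age at removal plus the days in culture matched them. The labels do not say how many animals each library pooled. Since each group is 1 library, replicate error is unknown, no test could be made, and each difference is one between 2 libraries.

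Interleukin-1 alpha and beta bind the same receptor, Il1r1, which signals only after the accessory chain Il1rap joins it. Il1rn occupies Il1r1 without signalling, and Il1r2 binds the ligands but has no signalling tail. Interleukin-33 is stored in the nucleus of stromal and lining cells and signals through Il1rl1 (also called ST2) with the same accessory chain, whereas interleukin-18 uses a receptor pair of its own, Il18r1 and Il18rap, and is held back by the soluble protein Il18bp. Interleukin-1 made in the testis has long been studied in Sertoli cells, Leydig cells and testicular macrophages.

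After filtering, 23038 cells of 24851 barcodes remained, 4816 to 6877 per library, with 32078508 to 57585867 UMIs per library. Cells were placed in classes by the UMIs of marker genes, none of them a member of the family, and a class is written as "like" its type. In 672 cells the lead of the best class over the next did not pass the required margin. These cells were placed in no class. Germ, Sertoli, Leydig, stromal, myoid, pericyte, endothelial and macrophage lists were detected in full in all 4 libraries. The submitters' library preparation note names female gonads and stem cell-derived cells, while the sample labels and the testis markers both give testis. Macrophage-like cells were few, with 10 in the 2-day culture, 28 at 9 dpp, 20 in the 7-day culture and 49 at 14 dpp. No cell passed the rule for mast cells or neutrophils. Between 29 and 75 kept barcodes were shared by any pair of libraries.

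Promoters are printed for Il33, which had the widest difference between culture and testis in vivo, and for Il1a and Il1rn, whose windows held a motif match. They come from RefSeq (build GRCm38.p6), run from 250 bases before to 50 bases after an annotated start, and are written 5′ to 3′ on the strand of the gene. Capitals mark a match to the AP-1 motif TGANTCA. The interval is chr19:29924863-29925162 (plus strand) for the first Il33 start and chr19:29945540-29945839 (plus strand) for the second, chr2:129309923-129310222 (minus strand) for Il1a and chr2:24336610-24336909 (plus strand) for the first Il1rn start.
Il33, first start: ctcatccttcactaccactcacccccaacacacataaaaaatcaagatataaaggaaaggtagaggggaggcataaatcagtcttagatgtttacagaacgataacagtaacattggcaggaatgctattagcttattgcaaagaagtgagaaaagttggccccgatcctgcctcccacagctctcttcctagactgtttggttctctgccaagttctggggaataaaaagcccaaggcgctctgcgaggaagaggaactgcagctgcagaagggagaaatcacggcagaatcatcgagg
Il33, second start: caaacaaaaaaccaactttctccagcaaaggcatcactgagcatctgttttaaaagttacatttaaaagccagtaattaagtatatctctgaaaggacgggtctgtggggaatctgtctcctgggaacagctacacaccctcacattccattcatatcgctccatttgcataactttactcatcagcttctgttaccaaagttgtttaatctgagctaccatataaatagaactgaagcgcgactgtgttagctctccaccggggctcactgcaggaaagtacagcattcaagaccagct
Il1a: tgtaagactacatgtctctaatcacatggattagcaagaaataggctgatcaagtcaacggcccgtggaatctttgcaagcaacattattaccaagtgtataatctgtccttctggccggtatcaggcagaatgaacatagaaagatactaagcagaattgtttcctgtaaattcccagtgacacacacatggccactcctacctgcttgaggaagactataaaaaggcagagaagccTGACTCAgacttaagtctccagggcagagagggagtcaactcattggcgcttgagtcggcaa
Il1rn, first start: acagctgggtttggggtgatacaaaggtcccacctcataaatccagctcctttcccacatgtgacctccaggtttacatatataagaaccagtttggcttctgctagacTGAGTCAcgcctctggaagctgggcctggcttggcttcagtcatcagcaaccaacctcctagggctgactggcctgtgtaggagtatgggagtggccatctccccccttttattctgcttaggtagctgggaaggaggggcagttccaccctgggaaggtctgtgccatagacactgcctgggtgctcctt
Both strands of all 32851 RefSeq mouse promoters of this length were searched for TGANTCA and for the NF-kB motif. TGANTCA was in 7.81% of them and the NF-kB motif in 4.51%. Of the 14 promoters of the 9 genes, 2 held TGANTCA, in Il1a from 12 to 6 bases and in Il1rn from 141 to 135 bases upstream of the start. The NF-kB motif was in 1, the second start of Il1r1, from 232 to 223 bases upstream. No window held both motifs, and neither motif was in either Il33 window. A match is a description, not a site or a cause, and the 3′ counts do not show which start was used.

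Values are given as UMIs and as CPM, UMIs per 1e6 UMIs of the same library or class, with 95% exact Poisson intervals in brackets. These intervals, and the exact binomial intervals behind shares of cells, cover counting error only. A gene counted as higher or lower when its CPM differed at least 2-fold, with a library at 0 set to a floor of 3 UMIs. Genes were counted where the 4 libraries summed to 50 UMIs or more, which left out Il1b (30 UMIs). In library sums, fewer cells of a type and less RNA per cell cannot be told apart.

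Against 9 dpp, 6 of the 8 counted genes were higher in the 2-day culture (Il1a, Il1rn, Il33, Il1r1, Il1r2 and Il1rl1) and 0 were lower, where 7.27% of 16505 genes were higher and 9.3% lower. Against 14 dpp, 2 were higher in the 7-day culture (Il1rn and Il33) and 1 was lower (Il18), where 7.41% of 16613 genes were higher and 6.78% lower. In vivo, 2 genes (Il1a and Il1rl1) were higher and 1 (Il1rn) lower at 14 dpp than at 9 dpp, where 7.64% of 16589 genes were higher and 5.55% lower. Between the cultures, 1 gene (Il1rn) was higher and 4 (Il1a, Il33, Il1r2 and Il1rl1) were lower at 7 days than at 2 days, where 9.21% of 16569 genes were higher and 5.53% lower. The median log2 ratio of the 8 genes was 1.66 in the 2-day comparison and 0.16 in the 7-day comparison, beside -0.15 and 0.00 over all genes counted. These 4 comparisons share libraries, each library entering 2 of them. Il1a and Il1rl1 reached the minimum of 50 UMIs only through the 2-day culture, and Il33 and Il1rn only through the cultures, where they were high, so the counts and medians are a description and not support for a direction.

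**Figure D1:**
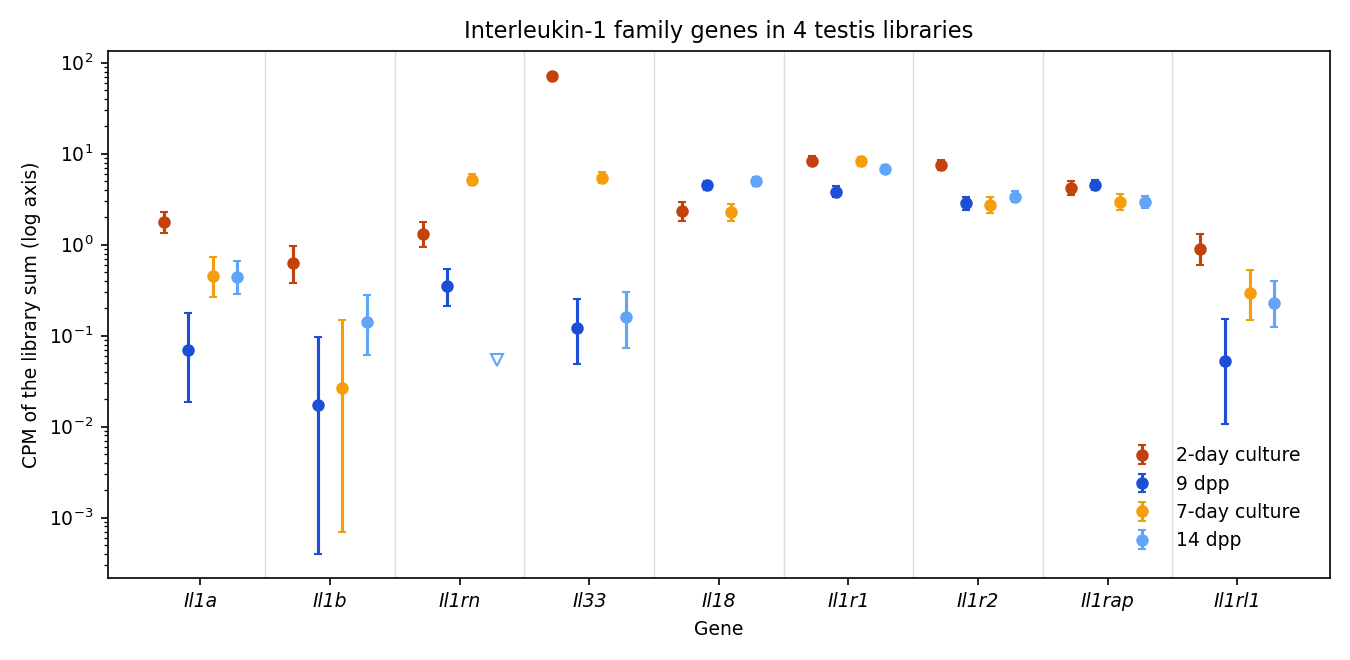
CPM of each gene in the summed counts of each library, on a log axis, with 95% exact Poisson intervals (counting error only, 1 library per group); the open triangle marks 0 UMIs, drawn at the level of 3 UMIs. Il33 stood at 70.9 CPM in the 2-day culture and at 0.122 CPM at 9 dpp, while Il1rap stayed between 2.96 and 4.53 CPM in all 4 libraries.

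Il1a (chr2:129299610-129309972, GENCODE M21 on GRCm38, as for all gene spans here) encodes interleukin-1 alpha, a ligand released by damaged or activated cells. The library held 57 UMIs of it (1.78 CPM [1.35 to 2.30]) in the 2-day culture, 4 (0.0695 CPM [0.0189 to 0.178]) at 9 dpp, 17 (0.458 CPM [0.267 to 0.733]) in the 7-day culture and 25 (0.445 CPM [0.288 to 0.657]) at 14 dpp. The 2-day culture was the highest and 9 dpp the lowest, and the 7-day culture and 14 dpp lay within each other's intervals. The 2-day culture was 25.6-fold above 9 dpp (counting interval 9.46 to 97.1), and the 7-day culture against 14 dpp gave a log2 ratio of 0.04 (-0.94 to 0.99). With each cell weighted equally, Il1a was instead more than 2-fold lower in the 7-day culture than at 14 dpp, as given in the section on processing.

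Il1a lay mostly in macrophage-like cells of the cultures and in Sertoli-like cells at 14 dpp. Macrophage-like cells held 52 of the 57 UMIs in the 2-day culture, in 8 of 10 cells, with the highest cell at 15 UMIs. Their level was 596 CPM [445 to 782] there, 7.17 CPM [0.868 to 25.9] at 9 dpp, 21.3 CPM [11.6 to 35.7] in the 7-day culture and 2.76 CPM [0.0698 to 15.4] at 14 dpp. Only the 2-day culture was far above the rest, and 11 of the 14 UMIs of the 7-day culture came from 1 cell. At 14 dpp, Sertoli-like cells held 17 of the 25 UMIs, 1 UMI in each of 17 of 783 cells (1.90 CPM [1.11 to 3.05]), against 2 UMIs in 828 Sertoli-like cells at 9 dpp (0.145 CPM [0.0176 to 0.525]). After each cell was thinned to 2000 UMIs, no Sertoli-like cell of 14 dpp kept an Il1a UMI, so that share is near the limit of detection. Germ and macrophage markers were also higher in the Sertoli-like cells of 14 dpp, with values given with Il1r1, and their part in the Il1a value was not tested.

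Il1b (chr2:129364570-129371139) encodes interleukin-1 beta, which inflammasome proteases cut into its active form. It was the rarest gene of the family, with 20 UMIs (0.624 CPM [0.381 to 0.963]) in the 2-day culture, 1 at 9 dpp, 1 in the 7-day culture and 8 (0.142 CPM [0.0614 to 0.280]) at 14 dpp. The 2-day culture stood above the other 3 libraries, and its ratio to 9 dpp rests on 1 UMI there (35.9-fold, counting interval 5.74 to 1488). Of the 20 UMIs, 18 lay in 4 of the 10 macrophage-like cells (206 CPM [122 to 326]), 10 of them in 1 cell. All 4 of these cells also held Il1a. The 8 neutrophil markers were at 160 CPM (14 UMIs) in the macrophage-like cells of the 2-day culture, 105 CPM in those of the 7-day culture, 25.1 CPM in those of 9 dpp and 0 in those of 14 dpp, from 2 genes (S100a8 and Csf3r), with the other 6 at 0 UMIs in all 4 libraries. The part of neutrophil RNA in the Il1a and Il1b levels was not tested. At 14 dpp, 5 of the 8 UMIs lay in 5 of 132 Leydig-like cells, 1 in each. Macrophage markers came to 251 UMIs (143 CPM) in the Leydig-like cells of 14 dpp and to 0 to 7 UMIs in those of the other libraries, and their part in this value was not tested.

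Il1rn (chr2:24336853-24351494) encodes the receptor antagonist. The libraries held 42 UMIs (1.31 CPM [0.944 to 1.77]) in the 2-day culture, 20 (0.347 CPM [0.212 to 0.536]) at 9 dpp, 193 (5.20 CPM [4.49 to 5.99]) in the 7-day culture and 0 at 14 dpp (0 CPM [0 to 0.0656], with the floor of 3 UMIs at 0.0534 CPM). Both cultures were above their in vivo counterparts, and the 7-day culture was the highest. The 2-day culture was 3.77-fold above 9 dpp (counting interval 2.16 to 6.78), the 7-day culture at least 97.4-fold above 14 dpp, and 14 dpp at least 6.51-fold lower than 9 dpp.

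Nearly all Il1rn UMIs lay in macrophage-like and Sertoli-like cells. Macrophage-like cells had 17 UMIs in 5 of 10 cells of the 2-day culture (195 CPM [114 to 312]), 183 UMIs in 12 of 20 cells of the 7-day culture (278 CPM [239 to 321]) and 0 in the 28 and 49 cells of 9 dpp and 14 dpp. The UMIs of the 7-day culture were concentrated, since 2 cells held 73 and 68 of them and another cell held 14. Sertoli-like cells had 22 UMIs (3.26 CPM [2.04 to 4.93]) in the 2-day culture, 20 (1.45 CPM [0.889 to 2.25]) at 9 dpp, 4 (0.628 CPM [0.171 to 1.61]) in the 7-day culture and 0 in 783 cells at 14 dpp. In Sertoli-like cells the antagonist was thus lower in both later libraries, the 7-day culture being 5.18-fold below the 2-day culture and 14 dpp at least 4.33-fold lower than 9 dpp. These values are near the limit of detection, with no Sertoli-like cell above 2 Il1rn UMIs. Different clusters held much of the class in the libraries, as given with Il1r1, and their part in this difference was not tested. Without the macrophage-like cells the 7-day library was lower than the 2-day library (log2 ratio -1.51) rather than higher (1.99).

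The macrophage-like cells of the 7-day culture differed from the others in depth and in the markers they carried. Their median was 36238 UMIs, against 8213 UMIs for the 2-day culture, 10173.5 for 9 dpp and 7155 for 14 dpp. UMIs of the 14 Sertoli markers made up 4681 CPM in them, against 502 to 1531 CPM in the other 3 libraries. The macrophage list was 18181 CPM in them and 11462 CPM in the 2-day culture, against 38824 CPM at 9 dpp and 30527 CPM at 14 dpp, with 0 of the 12 markers undetected in any library. The part of these differences in the Il1rn and Il18 levels of the class was not tested.

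**Figure D2:**
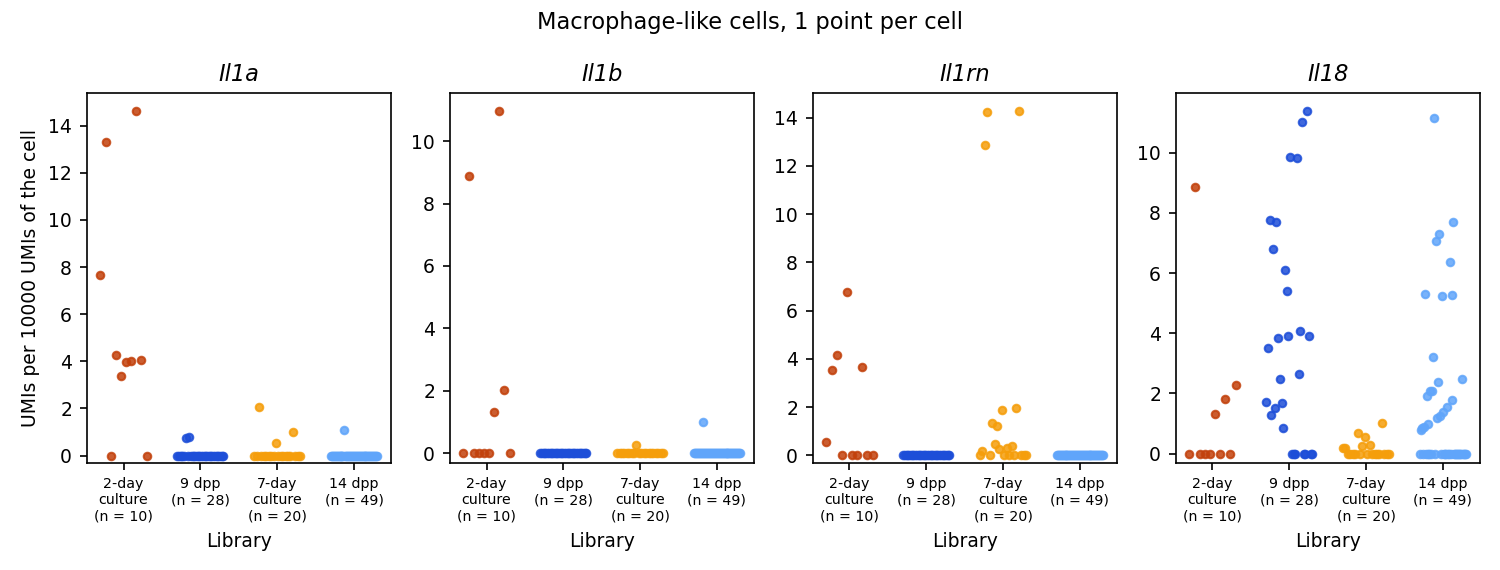
UMIs of 4 genes per 10000 UMIs of the cell in every macrophage-like cell, 1 point per cell and no averaging, in 10, 28, 20 and 49 cells. Il1a and Il1b points above 2 lie in the 2-day culture except for 1 Il1a cell of the 7-day culture, Il1rn points occur only in the 2 cultures, and Il18 points are densest at 9 dpp and 14 dpp.

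Il18 (chr9:50554827-50581840) encodes interleukin-18, a ligand made in advance and released after caspase-1 cleavage. Its library levels were 2.34 CPM [1.84 to 2.93] in the 2-day culture (75 UMIs), 4.48 CPM [3.95 to 5.06] at 9 dpp (258 UMIs), 2.26 CPM [1.81 to 2.80] in the 7-day culture (84 UMIs) and 4.98 CPM [4.41 to 5.60] at 14 dpp (280 UMIs). Both cultures were below both in vivo libraries, with log2 ratios of -0.94 (-1.33 to -0.56) for the 2-day and -1.14 (-1.51 to -0.78) for the 7-day comparison. Macrophage-like cells had the highest levels, 149 CPM [79.3 to 255] in 4 of 10 cells of the 2-day culture, 391 CPM [321 to 471] in 21 of 28 cells at 9 dpp, 15.2 CPM [7.29 to 28.0] in 7 of 20 cells of the 7-day culture and 177 CPM [136 to 225] in 23 of 49 cells at 14 dpp. The 7-day culture was the lowest in that class, and 10 of the 13 UMIs of the 2-day culture lay in 1 cell, the same cell that held 15 Il1a and 10 Il1b UMIs. Leaving out macrophage-like cells brought the 2-day log2 ratio to -0.42 and the 7-day one to -0.93, which ends the count of Il18 as lower.

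Germ-like cells held the largest number of Il18 UMIs at a low and even level, 3.48 CPM in the 2-day culture, 3.84 CPM at 9 dpp, 2.65 CPM after 7 days of culture and 3.75 CPM at 14 dpp. Sertoli-like cells had 0, 2, 0 and 3 UMIs in the same order. Stromal- or myoid-like cells had 14, 19, 15 and 10 UMIs in 2409, 1484, 1459 and 1061 cells. A low Il18 level was thus not particular to germ-like cells, though not every class shared it. Leydig-like cells stood out at 14 dpp, with 45 UMIs in 28 of 132 cells (25.6 CPM [18.7 to 34.2]) against 5.84 CPM [2.52 to 11.5] at 9 dpp. Macrophage markers came to 399 CPM in those 28 Leydig-like cells and to 43.4 CPM in the other 104, and the median depth was 17343.5 against 10931 UMIs. The part of macrophage RNA in that Leydig-like value was not tested.

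**Figure D3:**
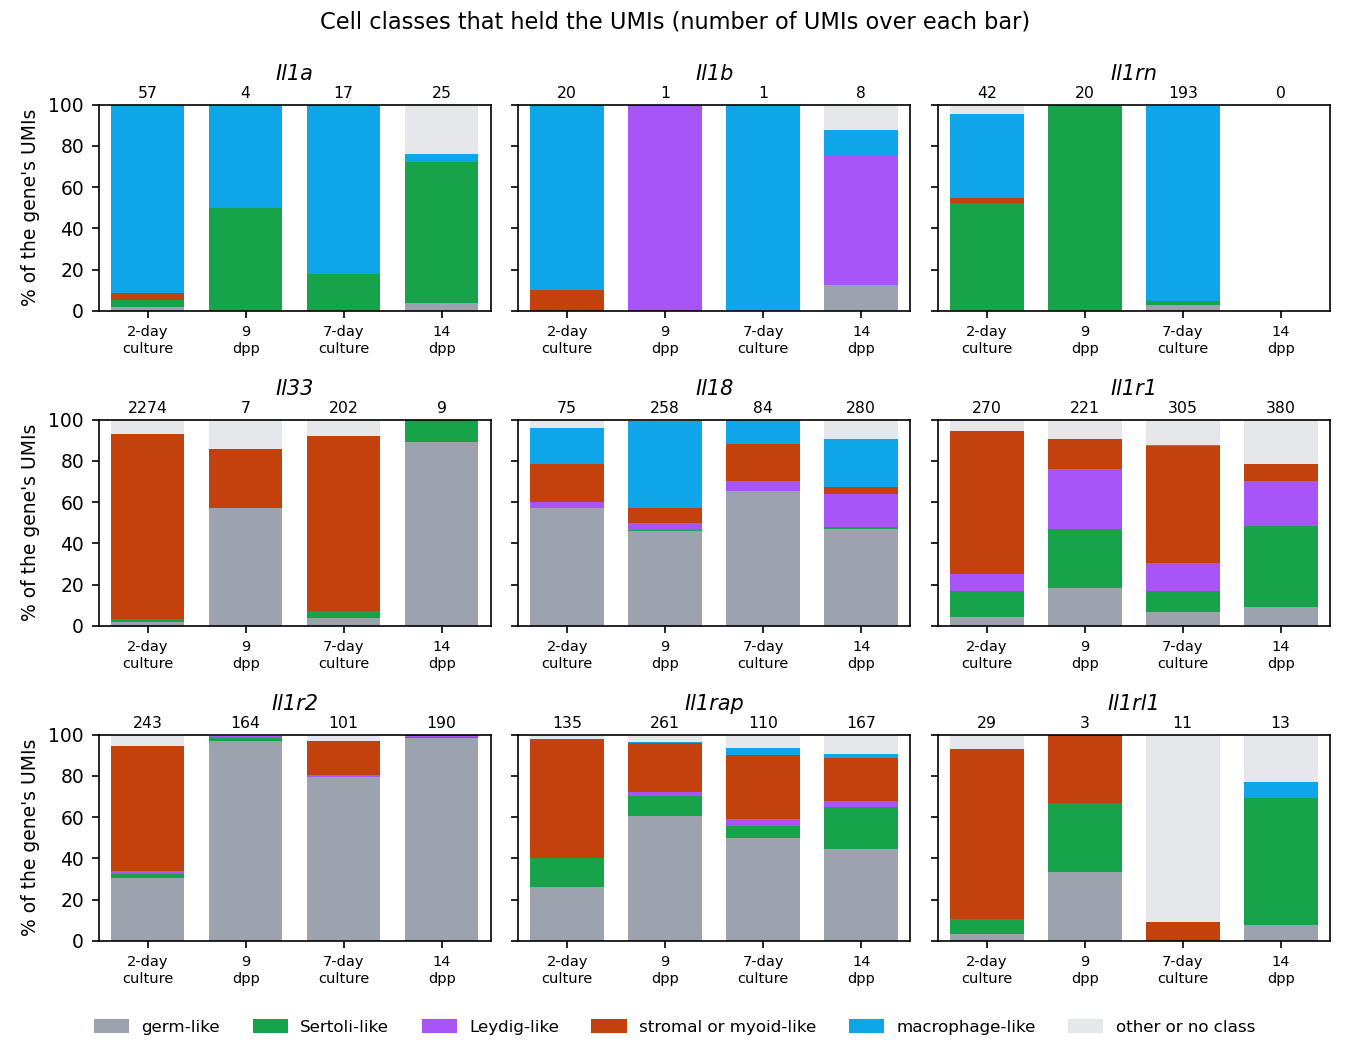
Share of each gene's UMIs by cell class in each library, in percent, with the number of UMIs over each bar. Macrophage-like cells hold most Il1a and Il1b of the 2-day culture, stromal- or myoid-like cells most Il33 of both cultures, and germ-like cells most Il1r2 in vivo; bars of fewer than 10 UMIs are rough.

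Il33 (chr19:29925114-29960718) encodes interleukin-33 and had the widest range of the family. The library held 2274 UMIs (70.9 CPM [68.0 to 73.9]) in the 2-day culture, 7 (0.122 CPM [0.0489 to 0.251]) at 9 dpp, 202 (5.44 CPM [4.72 to 6.25]) in the 7-day culture and 9 (0.160 CPM [0.0732 to 0.304]) at 14 dpp. Both cultures were far above both in vivo libraries, and the 2-day culture was above the 7-day culture. The 2-day culture was 583-fold above 9 dpp (counting interval 283 to 1452) and the 7-day culture 33.99-fold above 14 dpp (17.6 to 75.4). The 7-day culture was 13.0-fold below the 2-day culture.

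Stromal- or myoid-like cells held most of the Il33, 2033 of the 2274 UMIs of the 2-day culture and 172 of the 202 of the 7-day culture. The level in this class was 195 CPM [187 to 204] in the 2-day culture, 0.217 CPM [0.0263 to 0.785] at 9 dpp (2 UMIs), 25.8 CPM [22.1 to 29.9] in the 7-day culture and 0 in 1061 cells at 14 dpp. The ratio of the 2-day culture to 9 dpp, which rests on 2 UMIs there, was 897-fold (counting interval 248 to 7414), and the 7-day culture was at least 39.9-fold above 14 dpp. An Il33 UMI was found in 630 of 2409 stromal- or myoid-like cells of the 2-day culture (26.2%, median depth 3689 UMIs), against 0.866% of its germ-like cells (3555.5 UMIs). After thinning to 2000 UMIs the shares were 18.3% and 0.787%. In the 7-day culture 7.20% of the class held a UMI (3.95% after thinning, median depth 4075 UMIs), against 0.272% of germ-like cells (0.0407% after thinning, 6457 UMIs).

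Il33 was unevenly spread among the stromal- or myoid-like cells. In the 2-day culture 118 of the 2409 cells had at least 5 UMIs, the highest had 53, and the top 5% of cells held 54.2% of the UMIs. When the same cells were clustered without the family's genes, different clusters held the class in culture and in vivo. Cluster 7 (leading genes Cxcl5, Ccl2, Ly6a and Timp1) was almost wholly of the 2-day culture, whose 1325 cells there had Il33 at 269 CPM. Cluster 1, led by Mgp, Igfbp5 and Bgn, had 77.5 CPM in the 2-day culture and 10.4 CPM in the 7-day culture, and cluster 13, led by Apoe, C3 and Lum, had 35.5 CPM in the 7-day culture. The in vivo cells of the class lay in cluster 6, led by Tnnt2, Acta2 and Myh11, and cluster 10, led by Clec3b, Dlk1 and S100b. The comparison of the class thus sets different clusters against each other.

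Other classes of the 2-day culture held little Il33. Germ-like and Sertoli-like cells were alike at 3.72 CPM and 3.70 CPM, and Leydig-like cells were at 10.99 CPM (6 UMIs). Pericyte-like cells were an exception at 119 CPM [68.0 to 193], from 16 UMIs in 4 of 34 cells. Macrophage-like cells had 0 Il33 UMIs in all 4 libraries.

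Il1rl1 (chr1:40429570-40465415) encodes the interleukin-33 receptor and was close to the limit of detection. The libraries held 29 UMIs (0.904 CPM [0.605 to 1.30]) in the 2-day culture, 3 (0.0521 CPM [0.0107 to 0.152]) at 9 dpp, 11 (0.296 CPM [0.148 to 0.530]) in the 7-day culture and 13 (0.231 CPM [0.123 to 0.396]) at 14 dpp. The 2-day culture was the highest, 17.4-fold above 9 dpp with a counting interval of 5.38 to 89.0, from 3 UMIs at 9 dpp. In the 2-day culture 24 of the 29 UMIs lay in 11 stromal- or myoid-like cells, 9 of which also held Il33. Over the whole class, 630 of 2409 cells held Il33. The cell with most Il1rl1, 8 UMIs, held 38 UMIs of Il33 and had 14521 UMIs in all. Cells were not matched for depth in these counts. In the 7-day culture 7 of the 11 UMIs lay in a single lymphocyte-like cell, and at 14 dpp 8 of the 13 lay in 8 Sertoli-like cells. The 3 UMIs of 9 dpp were spread over stromal- or myoid-like, Sertoli-like and germ-like cells. Which class held most UMIs thus differed between the libraries, from counts too small to show that a class lacked the gene.

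**Figure D4:**
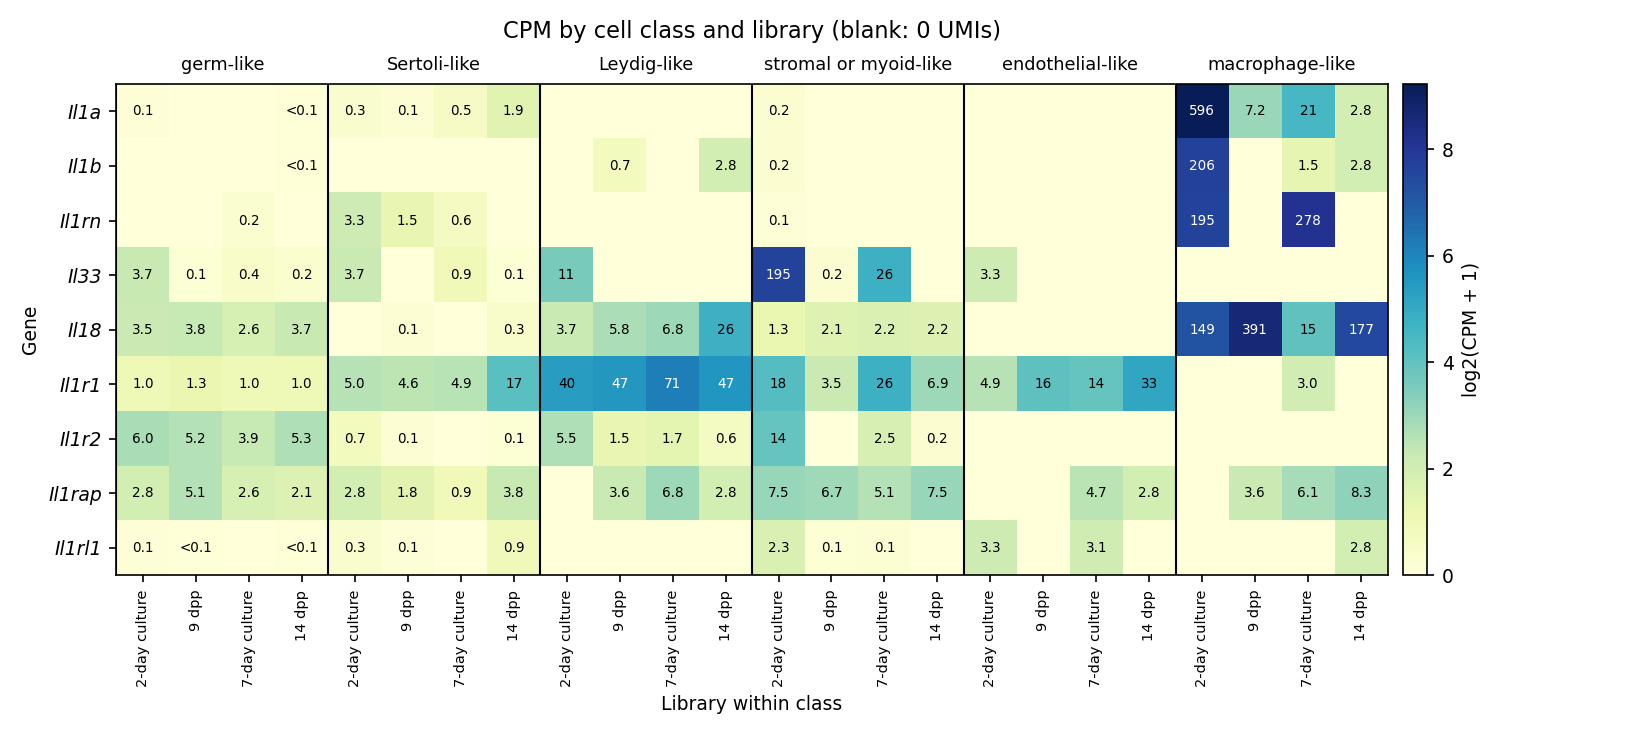
CPM of the 9 genes (rows) in 6 cell classes of the 4 libraries (columns); colour gives log2(CPM + 1), the printed number gives CPM and a blank cell means 0 UMIs. Among these 6 classes, which leave out pericyte-like cells, ligand and antagonist levels above 100 CPM fall in macrophage-like cells (Il1a, Il1b, Il1rn, Il18) and in stromal- or myoid-like cells of the 2-day culture (Il33), while Il1r1 was highest in Leydig-like cells in every library.

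Il1r1 (chr1:40225080-40317257), the signalling receptor, had UMIs in several somatic classes, among them the Sertoli-like and Leydig-like cells that held some Il1a, Il1b or Il1rn, and was nearly undetected in macrophage-like cells. The library levels were 8.42 CPM [7.44 to 9.48] in the 2-day culture (270 UMIs), 3.84 CPM [3.35 to 4.38] at 9 dpp (221), 8.22 CPM [7.32 to 9.19] in the 7-day culture (305) and 6.76 CPM [6.10 to 7.48] at 14 dpp (380). Only 9 dpp was clearly below the other libraries, 2.19-fold (1.83 to 2.63) below the 2-day culture, and the 7-day culture was 1.22-fold above 14 dpp (1.04 to 1.42). Macrophage-like cells held 2 UMIs in the 7-day culture and 0 in each of the other 3 libraries. The small vascular classes held Il1r1 too, given here in the order 2-day culture, 9 dpp, 7-day culture and 14 dpp. Endothelial-like cells had 3, 4, 9 and 12 UMIs in 48, 18, 20 and 26 cells. Pericyte-like cells had 1, 8, 12 and 1 UMIs in 34, 46, 44 and 62 cells.

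Among the classes, Leydig-like cells, the testosterone-producing cells of the interstitium, had the highest Il1r1 level in each library. It was 40.3 CPM [25.2 to 61.0] in the 2-day culture, 46.7 CPM [36.0 to 59.6] at 9 dpp, 71.1 CPM [51.2 to 96.1] in the 7-day culture and 47.2 CPM [37.6 to 58.5] at 14 dpp. The 7-day culture was the highest, 1.51-fold above 14 dpp (1.01 to 2.21), and the intervals of all 4 libraries overlapped. At 14 dpp 54 of 132 Leydig-like cells held a UMI (40.9%, 9.09% after thinning, median depth 12055.5 UMIs), against 0.896% of germ-like cells (0.0538% after thinning, 6903.5 UMIs).

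In stromal- or myoid-like cells Il1r1 was higher in both cultures. The levels were 17.9 CPM [15.5 to 20.7] in the 2-day culture, 3.48 CPM [2.38 to 4.91] at 9 dpp, 25.9 CPM [22.2 to 30.1] in the 7-day culture and 6.89 CPM [4.71 to 9.72] at 14 dpp. The cultures were 5.16-fold (3.53 to 7.76) and 3.76-fold (2.57 to 5.67) above the in vivo libraries of matching age. By cluster, Il1r1 was at 20.4 CPM in cluster 7 and 13.0 CPM in cluster 1 of the 2-day culture, at 28.3 CPM in cluster 13 and 21.1 CPM in cluster 1 of the 7-day culture, and at 3.35 to 9.82 CPM in clusters 6 and 10 of the in vivo libraries. The 8 myoid markers of the merged class were lower in both cultures (3320 CPM against 8564 CPM for the earlier pair, 5273 CPM against 11937 CPM for the later pair), while the stromal list was at 11587 to 13248 CPM in all 4 libraries. The part of the clusters and of the myoid share in the Il1r1 difference was not tested. Within the class, 3 of the 5 family genes with 50 UMIs there (Il33, Il1r1 and Il1r2) were higher and 0 lower in the 2-day culture than at 9 dpp, where 6.79% of 12055 genes were higher and 9.7% lower. The same 3 were higher and 0 lower in the 7-day culture than at 14 dpp, where 6.63% of 12048 genes were higher and 6.23% lower. Il33 and Il1r2 reached 50 UMIs in this class only through the cultures and could hardly have counted as anything but higher, so these counts too are a description. After subtraction of free RNA estimated from germ-like cells, which hold Il1r2 themselves, Il1r2 was no longer among the higher genes of the 7-day comparison and Il1rap was lower. In the 2-day culture an Il1r1 UMI was found in 10.8% of the stromal- or myoid-like cells with Il33 and in 5.56% of those without, without matching the cells for depth.

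Sertoli-like cells, which nurse the germ cells, gave the opposite picture for Il1r1 at the later age. Their levels were 5.03 CPM [3.48 to 7.03] in the 2-day culture, 4.58 CPM [3.52 to 5.86] at 9 dpp, 4.87 CPM [3.31 to 6.91] in the 7-day culture and 16.7 CPM [14.1 to 19.6] at 14 dpp. The first 3 libraries lay within each other's intervals and 14 dpp stood alone, 3.64-fold above 9 dpp (2.69 to 4.97) and 3.43-fold above the 7-day culture. Different clusters held the class here too: Il1r1 was at 4.24 CPM in cluster 11 (865 cells of 9 dpp), 16.7 CPM in cluster 14 (743 cells of 14 dpp) and, in cluster 9, 5.19 CPM in 734 cells of the 2-day and 4.17 CPM in 511 cells of the 7-day culture. Cluster 19, of 334 cells at 14 dpp, was at 10.6 CPM, but only 15.9% of its cells were Sertoli-like by their own markers, and 69 of the 380 Il1r1 UMIs at 14 dpp lay in cells of no class. Markers of other cells also stood apart in the Sertoli-like cells of 14 dpp: the 13 germ markers were at 1077 CPM against 315 to 453 CPM in the other 3 libraries, and the 12 macrophage markers at 53.9 CPM against 6.21 to 17.8 CPM. Germ-like cells had Il1r1 at 0.972 CPM and macrophage-like cells had 0 Il1r1 UMIs at 14 dpp, and the part of these markers in the Sertoli-like value was not tested. A UMI was found in 15.96% of Sertoli-like cells at 14 dpp and 7.00% at 9 dpp, at median depths of 8720 and 12962 UMIs. After thinning the shares were 4.22% and 0.369%, against 0.0538% and 0.199% of germ-like cells (0.896% and 1.53% before thinning, median depths 6903.5 and 11003 UMIs).

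**Figure D5:**
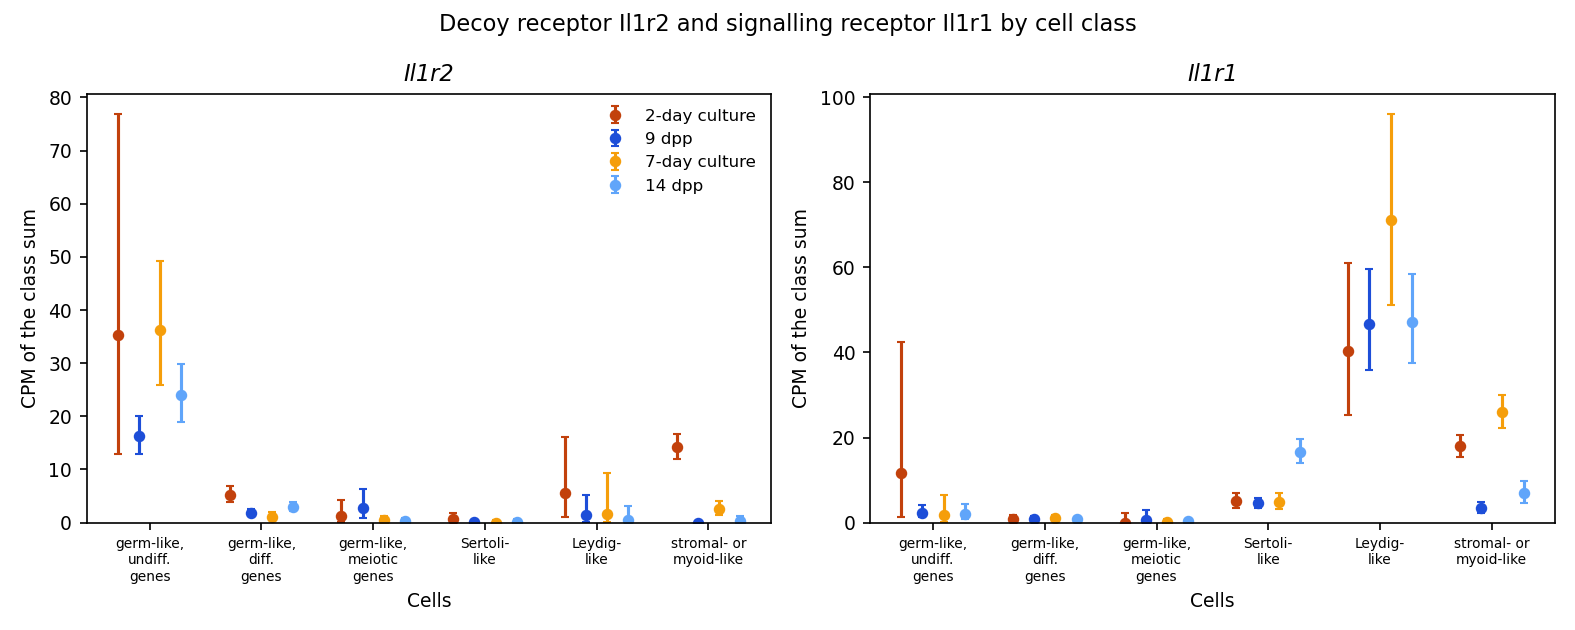
CPM of the decoy receptor Il1r2 (left) and of the signalling receptor Il1r1 (right) in germ-like cells split by stage genes and in 3 somatic classes, with 95% exact Poisson intervals (counting error only). Il1r2 is highest in germ-like cells with genes of undifferentiated spermatogonia, and Il1r1 in Leydig-like cells; stromal- or myoid-like cells carry both in the 2-day culture.

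Il1r2 (chr1:40074079-40125231), the decoy receptor, was mainly a germ cell transcript in vivo. The library levels were 7.58 CPM [6.65 to 8.59] in the 2-day culture (243 UMIs), 2.85 CPM [2.43 to 3.32] at 9 dpp (164), 2.72 CPM [2.22 to 3.31] in the 7-day culture (101) and 3.38 CPM [2.92 to 3.90] at 14 dpp (190). Only the 2-day culture was above the others, 2.66-fold above 9 dpp (2.17 to 3.26). Germ-like cells held 159 of the 164 UMIs at 9 dpp and 187 of the 190 at 14 dpp, and their level was 5.99 CPM in the 2-day culture, 5.17 CPM at 9 dpp, 3.85 CPM after 7 days of culture and 5.35 CPM at 14 dpp.

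Within the germ-like cells, the Il1r2 level was highest in those led by genes of the earliest stage. Cells were split by 8 genes of undifferentiated spermatogonia (among them Zbtb16, Gfra1 and Nanos3), 6 of differentiating spermatogonia (among them Kit and Stra8) and 6 of meiosis (among them Sycp1 and Dmc1). In cells led by the undifferentiated genes the level was 35.3 CPM [13.0 to 76.9] in the 2-day culture (6 UMIs in 39 cells), 16.3 CPM [13.0 to 20.2] at 9 dpp (358 cells), 36.2 CPM [25.9 to 49.3] in the 7-day culture (82 cells) and 24.0 CPM [19.02 to 29.8] at 14 dpp (257 cells). It was 1.13 to 5.18 CPM in cells led by the differentiating genes and 0.287 to 2.70 CPM in those led by the meiotic genes. At 9 dpp the undifferentiated group was 14.1% of the germ-like cells and held 52.2% of their Il1r2 UMIs, and at 14 dpp it was 6.77% and held 43.3%. In the 7-day culture it was 3.18% and held 40 of the 80 UMIs. In the 2-day culture it was 1.35% and held 8.11%, while cells led by the differentiating genes were 66.6% and held 64.9%. The germ-like cluster led by Egr4, Foxf1 and Upp1 was at 13.8 to 32.6 CPM over the 4 libraries, likewise lowest at 9 dpp.

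In the cultures, stromal- or myoid-like cells were a further source of Il1r2, and in the 2-day culture the largest. There they held 148 of the 243 UMIs and germ-like cells 74, against 17 and 80 of the 101 UMIs of the 7-day culture. The level in stromal- or myoid-like cells was 14.2 CPM in the 2-day culture (148 UMIs in 133 cells) and 0 in 1484 cells at 9 dpp. It was 2.55 CPM [1.48 to 4.08] in the 7-day culture (17 UMIs) and 0.215 CPM at 14 dpp (1 UMI). The 2-day culture was at least 43.5-fold above 9 dpp. A UMI was found in 5.52% of these cells of the 2-day culture (2.61% after thinning), against 0.426% of its Sertoli-like cells (0.136% after thinning, median depth 3226.5 UMIs). Cluster 7 had 14.1 CPM and cluster 1 had 14.6 CPM in the 2-day culture, so Il1r2 did not follow Il33 in being higher in cluster 7.

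Il1rap (chr16:26581704-26730117), the accessory chain that completes both receptors, had the narrowest range of library levels. The library levels were 4.21 CPM [3.53 to 4.98] in the 2-day culture, 4.53 CPM [4.00 to 5.12] at 9 dpp, 2.96 CPM [2.44 to 3.57] in the 7-day culture and 2.97 CPM [2.54 to 3.46] at 14 dpp. The 2 later libraries were below the 2 earlier ones, and each culture was close to its in vivo counterpart, with log2 ratios of -0.11 (-0.42 to 0.20) and -0.00 (-0.36 to 0.35). Stromal- or myoid-like cells had 5.09 CPM in the 7-day culture and 6.74 to 7.53 CPM in the other 3 libraries. In germ-like cells 9 dpp was the highest at 5.14 CPM [4.37 to 6.00], 2.43-fold above 14 dpp at 2.12 CPM [1.66 to 2.66]. In Sertoli-like cells the 7-day culture was 4.04-fold below 14 dpp, from 6 against 34 UMIs (log2 ratio -2.01, -3.56 to -0.75). Both chains of the interleukin-1 receptor were seen in few single cells: Il1r1 and Il1rap met in 10 stromal- or myoid-like cells of the 2-day culture, 4 at 9 dpp, 4 in the 7-day culture and 0 at 14 dpp. In Sertoli-like cells they met in 10 of 783 cells at 14 dpp, and in 0, 1 and 1 cells of the 2-day culture, 9 dpp and the 7-day culture. Cells were not matched for depth in these counts, with medians of 8720 UMIs in the Sertoli-like cells of 14 dpp and 3689 UMIs in the stromal- or myoid-like cells of the 2-day culture.

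Genes around the family were described from lists by role, chosen with earlier results of these data known; the shares over all genes were 7.27% higher in the 2-day comparison with 9 dpp and 7.41% higher in the 7-day comparison with 14 dpp. Of 6 other receptors, 2 had 50 UMIs, and both were higher in the 2-day culture than at 9 dpp, 1 of them also in the 7-day culture than at 14 dpp. That gene, Il1rl2 (chr1:40324610-40367562), encodes the interleukin-36 receptor and lies next to Il1r1. It reached 50 UMIs only through the cultures, so its count as higher is a description. In stromal- or myoid-like cells it was at 11.7 CPM in the 2-day culture, 1.85 CPM at 9 dpp, 4.64 CPM in the 7-day culture and 0 at 14 dpp. Sigirr, an inhibitory receptor of the family, was at 22.9 to 44.2 CPM in endothelial-like cells of the 4 libraries and had 0 UMIs in Sertoli-like and Leydig-like cells. In endothelial-like cells the 2-day culture was the lowest (22.9 CPM against 43.0 CPM at 9 dpp), and in germ-like cells it was above 9 dpp (3.48 CPM against 1.01 CPM).

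The partners of interleukin-18 were unequal. Its receptor chains were nearly undetected, with 1 UMI of Il18r1 and 3 of Il18rap over all 4 libraries. Its inhibitor Il18bp was at 4.89 CPM in the 2-day culture, 1.04 CPM at 9 dpp, 1.62 CPM after 7 days of culture and 1.12 CPM at 14 dpp. In the 2-day culture it was at 7.19 CPM in stromal- or myoid-like cells and 6.51 CPM in Sertoli-like cells, against 0.326 CPM and 0.873 CPM at 9 dpp. Among the classes, its level was highest in macrophage-like cells, from few UMIs. There it was 91.7 CPM (8 UMIs) in the 2-day culture and 28.7 CPM (8 UMIs) at 9 dpp. In the later libraries it was 4.56 CPM (3 UMIs) in the 7-day culture and 8.28 CPM (3 UMIs) at 14 dpp.

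Among 9 processing and release genes with 50 UMIs, 3 were higher and 0 lower in the 2-day culture than at 9 dpp, and 4 higher and 0 lower in the 7-day culture than at 14 dpp. Casp4, an inflammatory caspase, had log2 ratios of 5.12 and 3.52 in these comparisons, the inflammasome sensor Nlrp3 3.58 and 3.23, and Casp1, the caspase that cuts interleukin-1 beta and interleukin-18, 1.93 and 1.67. Nlrp3, with 59 UMIs in all, reached 50 UMIs only through the cultures, so its place in these counts is a description. Germ-like cells held 18 Nlrp3 UMIs in the 2-day and 17 in the 7-day culture (1.46 and 0.818 CPM), against 2 at 9 dpp and 3 at 14 dpp. Macrophage-like cells held 1 in the 2-day and 14 in the 7-day culture (11.5 and 21.3 CPM), against 0 at 9 dpp and 2 at 14 dpp. Casp1 was at 183 CPM in macrophage-like cells of the 2-day culture, 111 CPM at 9 dpp, 114 CPM after 7 days of culture and 141 CPM at 14 dpp, while in stromal- or myoid-like cells it was at 3.55 and 5.54 CPM in the cultures and had 1 and 0 UMIs in vivo. Casp4 in stromal- or myoid-like cells of the 2-day culture stood at 417 UMIs (40.0 CPM), against 1.85 CPM at 9 dpp. Of 16 signal relay genes (Myd88, the Irak kinases and others), 3 were higher and 0 lower in the 2-day comparison and 0 were higher or lower in the 7-day comparison. Of 16 known target genes with 50 UMIs, 16 and 14 were higher and 0 lower, beside 7.27% and 7.41% of all genes higher. Of these, Cxcl5, Il6, Ptgs2 and Csf3 reached 50 UMIs only through the cultures. In the 2-day comparison they could hardly have counted as anything but higher, while Csf3 was not higher in the 7-day comparison (log2 ratio -0.72). Nothing is therefore read from the counts against the share of all genes. The 4 whose smaller ratio of the 2 was largest were Cxcl5 (log2 ratios 13.44 and 9.57), Saa3 (13.19 and 9.53), Ccl2 (8.99 and 5.94) and Cxcl2 (7.64 and 4.32). These targets also respond to other signals.

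The genes most like each member were ranked by Pearson correlation of log2(CPM + 1) over 16 sums, 4 classes in 4 libraries, which share library, depth and class markers. For Il33 they were Ifi205 (r = 0.98), Cxcl5 (0.97) and Serpina3f (0.97). For Il1r1 they were Lipg (0.97), Fam46a (0.94) and Acad8 (0.93), for Il1r2 Vmp1 (0.88), Apip (0.87) and Phf11d (0.86), for Il18 Igfbp2 (0.91), Atp5d (0.91) and St6galnac2 (0.88), and for Il1rap Dock6 (0.87), Zfp658 (0.85) and Tmem167b (0.83). The macrophage-like sums were too small to enter, so the values for Il1a (Eif4e1b, 0.96; Gm44929, 0.94; Slc9a2, 0.94) and Il1rn (Fabp7, 0.97; Cbln4, 0.97; Klhl30, 0.96) rest on the few UMIs outside that class. Those for Il1rl1 (Trdc, 0.96; Kcnn4, 0.93; Htr2b, 0.88) rest on few UMIs in any class.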

How the data were processed

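Counts of UMIs per gene and cell were deposited by the authors as filtered matrices, 1 per library; Cell Ranger 3.0.2 and the mm10 genome are named in the submitters' processing notes, and the growth and dissociation steps are given per the labels' protocols. The cell filter was 500 genes or more and no more than 20% of UMIs mitochondrial, and 632 doublet calls (Scrublet in scanpy 1.11.5, expected rate 6%) were removed. A class needed at least 3 markers, 5 UMIs and a lead of 0.1 in marker score over the next class; stromal and myoid cells were merged. This scoring rule was set after the counts were seen, and the stage genes after the clusters were seen. Members and lists were chosen with earlier results of these data known. Clusters came from leidenalg 0.10.2 (resolution 1, 30 components, 20 neighbours, 2000 variable genes, without the family and its pathway genes). Summed counts were scaled to CPM without replicates or tests; the ratio code was checked on simulated counts. Named genes were all 9 members, up to 4 genes per list past 2-fold in the same direction in both culture comparisons, those binding the same ligand or receptor, and the 3 genes most like each member. For shares of cells, each cell was thinned to 2000 UMIs and shallower cells were left out. Alternatives were other cell filters, kept doublet calls, TMM factors (edgeR 4.0.16), CPM plus 1, equal weight per cell, cluster classes, a stricter marker rule and free RNA subtraction. Gene spans come from GENCODE M21 on GRCm38, the assembly that mm10 names.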

Additional observations from a re-analysis of the deposited data

Results flagged for a closer look

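Cell classes moved in opposite directions for 2 receptors between the 7-day culture and 14 dpp. For Il1r1 the log2 ratio of the culture to the in vivo library was -1.78 in Sertoli-like cells, 0.59 in Leydig-like cells and 1.91 in stromal- or myoid-like cells. For Il1r2 it was -0.47 in germ-like cells and 3.56 in stromal- or myoid-like cells, the latter resting on 1 UMI at 14 dpp. With 1 library per group these differences between classes were not tested.

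Cells that met no class rule, 236 in the 2-day culture and 108 in the 7-day culture, entered no comparison by class but held Il33 and Il1r2 above the in vivo level. Il33 was at 128 CPM in those of the 2-day culture and at 12.5 CPM in those of the 7-day culture, against 0 UMIs in the 99 and 281 cells of no class at 9 dpp and 14 dpp. Il1r2 was at 8.82 CPM in those of the 2-day culture, against 0.599 CPM at 9 dpp. Il1a had 0 UMIs in these cells of both cultures and of 9 dpp and 6 at 14 dpp. Il18 had 3 UMIs in the 2-day culture and 2 at 9 dpp, and 0 in the 7-day culture and 27 at 14 dpp. These values were not tested.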

How the results depend on the processing

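Of 42 recomputed counts of members past 2-fold, 39 stayed within 1.5 times the first value. The exceptions came from log2 ratios of CPM plus 1, which shrink rare genes by construction: the 2-day comparison then counted 3 members (Il1a, Il33 and Il1r2), 14 dpp against 9 dpp counted 0, and the 7-day against the 2-day culture counted 3 (Il1rn, Il33 and Il1r2). Leaving out the macrophage-like cells, an alternative chosen after seeing the data, took Il1a below the minimum, gave counts of 5, 2, 2 and 4, and turned the Il1rn log2 ratio of the 7-day against the 2-day culture to -1.51. With each cell weighted equally, Il1a was lower in the 7-day culture than at 14 dpp (log2 ratio -1.34), and the cause was not tested. Subtracting free RNA estimated from germ-like cells added Il1rap to the genes higher in stromal- or myoid-like cells of the 2-day culture, and in the 7-day comparison left Il33 and Il1r1 higher, dropped Il1r2 and made Il1rap lower; germ-like cells hold Il1r2 themselves, so this is no clean check for that gene. Of 180 levels by class, 172 moved by less than their counting interval when clusters set the classes. Of 180 shares of cells, 57 moved by more than their interval without thinning. Of 252 library log2 ratios, 223 moved less than their interval, 28 more and 1 reversed. TMM factors were 0.925 to 1.04. No paired analysis was possible because each group had 1 library. Depth limits Il1b and Il1rl1, with few UMIs in any library, and 10 to 49 macrophage-like cells per library limit every value of that class.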

Other observations

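Rare cells carried some of the family. In the 7-day culture, 1 lymphocyte-like cell of 12944 UMIs held 7 Il1rl1 UMIs with 7 Gata3, 2 Il7r and 19 Trbc2 UMIs and 0 of Cd3e and Cd3d. It was 1 of 7 lymphocyte-like cells in the series, and the other 6 held no UMI of any member. In the 2-day culture, the only dendritic-like cell of the series held 3 Il1r2 UMIs.

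Il18 in germ-like cells was also highest in those led by genes of undifferentiated spermatogonia in vivo, at 7.84 CPM [5.60 to 10.7] at 9 dpp and 8.58 CPM [5.74 to 12.3] at 14 dpp. In cells led by the differentiating genes it was at 2.48 CPM [1.83 to 3.29] and 2.06 CPM [1.45 to 2.84], and in those led by the meiotic genes at 2.70 CPM [0.878 to 6.31] and 4.79 CPM [3.56 to 6.31], intervals that overlap those of the undifferentiated group. Il1rap did not have this order, with 3.53 CPM in the undifferentiated and 5.58 CPM in the differentiating group at 9 dpp.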
